A study of Homo sapiens with 19 samples.

Results

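ERRα binding that appeared on heregulin, and neither on vehicle nor on EGF, was examined away from promoters in SKBr3, a human breast cancer line in which the ERBB2 gene, encoding HER2, is amplified. The sites were chosen by peak calls alone. Peaks of the vehicle, EGF and heregulin (HRG) lists were joined into 1 site wherever they overlapped by at least 1 bp, which gave 55998 sites. A site was taken when it held an HRG peak and no vehicle or EGF peak, and when the midpoint of that HRG peak lay more than 1 kb from every protein-coding transcription start. Of the 55998 sites, 13888 (24.8%) carried an HRG peak alone, and 11454 of these were distal and are called HRG-only distal sites here. The other 2434 lay within 1 kb of a start and are called HRG-only promoter sites.

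SKBr3 cells were serum-starved for 24 h and then given PBS as vehicle, EGF or HRG, the growth factors at a labelled 100 µM for 90 min. BT-474, another breast cancer line with amplified ERBB2, was starved and treated in the same way. LRSKBr3 cells are lapatinib-resistant SKBr3 cells kept in 2 µM lapatinib, and pSKBr3 cells are their untreated parental counterpart. The labels give no growth factor for either. Chromatin was precipitated with an ERRα antibody and sequenced. Each SKBr3, pSKBr3 and LRSKBr3 list pools 2 ChIP libraries, and each BT-474 list rests on 1 ChIP library. The 8 lists therefore carry no replicate values, and no test between conditions was possible. The ranges in brackets after a share are 95% Wilson intervals and reflect counting error alone. The number of reads behind each list was not given in the sources used here.

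ERRα is an orphan nuclear receptor that binds DNA as a monomer or dimer at the extended half-site TCAAGGTCA (the ERR response element, ERRE) and, with PGC-1 coactivators, controls genes of mitochondrial energy metabolism. HRG is a ligand of HER3, which signals in partnership with HER2. EGF binds EGFR, which can also pair with HER2. Both routes activate the RAS-ERK and PI3K-AKT cascades, and ERK signalling induces FOS and JUN proteins, whose dimers form AP-1 and bind TGACTCA. Lapatinib inhibits the kinases of EGFR and HER2.

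The windows below run from 100 bp before to 100 bp after the midpoint of an HRG peak on the GRCh37 plus strand. Words of the ERRE or AP-1 would stand in capitals, and none of the windows shown held one. The first set holds the 3 sites of highest HRG score, shown as the strongest calls of the class. The PPP6R2 window is a long GT-rich repeat 4041 bp from a PPP6R2 start and outside its coding transcripts. The PEDS1-UBE2V1 window lies in an intron and the INTS1 window lies 1534 bp from an INTS1 start, outside coding transcripts.
PPP6R2, chr22:50777592-50777792: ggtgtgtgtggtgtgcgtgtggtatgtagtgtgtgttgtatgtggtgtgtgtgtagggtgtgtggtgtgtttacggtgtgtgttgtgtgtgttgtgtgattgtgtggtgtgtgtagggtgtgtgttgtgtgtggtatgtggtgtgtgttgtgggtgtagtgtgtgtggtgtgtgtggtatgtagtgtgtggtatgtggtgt
PEDS1-UBE2V1, chr20:48762372-48762572: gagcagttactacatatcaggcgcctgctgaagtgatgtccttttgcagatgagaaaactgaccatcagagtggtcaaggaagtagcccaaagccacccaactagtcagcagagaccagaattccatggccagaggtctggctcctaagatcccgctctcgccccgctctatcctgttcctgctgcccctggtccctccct
INTS1, chr7:1545459-1545659: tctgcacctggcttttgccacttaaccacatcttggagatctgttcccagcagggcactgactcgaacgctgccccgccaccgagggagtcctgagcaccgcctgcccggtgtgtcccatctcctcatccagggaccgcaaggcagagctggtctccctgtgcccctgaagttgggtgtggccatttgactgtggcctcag
The second set holds sites near MESP1 and MTA3, which are among the 3 highest-scoring sites with peaks in the LRSKBr3 and BT-474 HRG lists and none in pSKBr3. They were picked for those peaks and are shown as strong sites that recurred both in resistant cells and in another line. Both also had a peak in BT-474 on vehicle, scoring 260.69 at MESP1 and 51.36 at MTA3. The MTA3 window is intronic. The MESP1 window, which contains a CA-repeat run, lies 3784 bp from a MESP1 start and outside coding transcripts.
MESP1, chr15:90298164-90298364: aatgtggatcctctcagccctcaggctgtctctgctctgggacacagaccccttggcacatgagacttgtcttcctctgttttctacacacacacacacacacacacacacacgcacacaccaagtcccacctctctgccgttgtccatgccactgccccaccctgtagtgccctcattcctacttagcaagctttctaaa
MTA3, chr2:42784697-42784897: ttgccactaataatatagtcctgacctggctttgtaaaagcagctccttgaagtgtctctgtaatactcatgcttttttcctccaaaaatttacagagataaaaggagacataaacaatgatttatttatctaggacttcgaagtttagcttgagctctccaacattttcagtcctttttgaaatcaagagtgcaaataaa
Simple repeats are easy to see in the PPP6R2 and MESP1 windows.

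The score used throughout is the peak caller's log-scaled P value. It rises with read depth, so its size is not comparable between lists. Only 31 of the 11454 sites (0.271%) held both the ERRE and the AP-1 word within 100 bp of the midpoint. The ERRE word alone was held by 418, the AP-1 word alone by 959 and neither by 10046. Over all 49164 distal sites of any class, 0.486% held both words. The 5 highest-scoring HRG-only distal sites with both words lay in introns of PRR14L and ACP7 and outside protein-coding transcripts nearest to starts of EXOC1L, XPO1 and IGFBP7. All 5 peaks were narrow, from 1014 to 1144 bp. The peak scores were 271.64 for PRR14L, 258.38 for EXOC1L, 225.65 for XPO1, 164.26 for IGFBP7 and 139.45 for ACP7. The XPO1, IGFBP7 and ACP7 sites also had LRSKBr3 peaks, scoring 85.18, 68.35 and 83.38. None of the 5 had a pSKBr3 or BT-474 peak.

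The HRG peaks of the HRG-only distal sites were weak to moderate in their own list. These values describe what the rule selected. Scores ran from 50.01 to 2714.77 with a median of 82.8, against a median of 320 at distal sites bound under vehicle, EGF and HRG alike (common distal sites, n = 13499). The median HRG-only distal peak stood at the 27.4th percentile of the HRG list. The lists start at a score of 50, the peak caller's cutoff, and 2356 sites (20.6%) scored under 60. The 5 lowest all scored 50.01, near PADI3, ELK3, RGS6, CNEP1R1 and RNF213. At the distance cutoff, 73 sites lay at most 100 bp beyond it and 74 HRG-only promoter sites lay at most 100 bp inside it. The HRG-only distal sites nearest to the cutoff were at PSG7 and NACC2, both at 1001 bp. HRG-only promoter sites at ORAI3 and LTBP4, both at 1000 bp, fell just short of it.

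The gap between HRG-only distal sites and the nearest vehicle or EGF peak is given as a description, since the rule used the absence of such peaks. A vehicle or EGF peak lay within 1 kb of 8.14% of the sites, within 10 kb of 44.3% and within 50 kb of 84.7%, with a median gap of 12328 bp. The median distance to a protein-coding start was 23259 bp (median interval 22458 to 24164). That was nearer than at common distal sites (30469 bp), EGF-only distal sites (54859 bp) and vehicle-only distal sites (80690 bp). Introns of protein-coding genes held 44.97% of the midpoints, coding exons 1.56%, untranslated regions 1.72% and intergenic sequence 51.7%. All distal sites were close to this, with 45.6% in introns and 51.5% in intergenic sequence. The intron share was 48.2% at common distal sites and 43.2% at EGF-only distal sites.

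The 12 sites of highest score show what the strongest HRG-only calls looked like across the lists that the choice did not use. The PPP6R2 site, chr22:50775184-50780200, scored 2714.77 on HRG, 439.28 in LRSKBr3 and 259.33 in pSKBr3, and had no BT-474 peak. The PEDS1-UBE2V1 site, chr20:48752500-48772444, scored 2279.56 on HRG and had peaks in all 5 other lists. The INTS1 site, beside a subunit gene of the Integrator complex, scored 2107.65 on HRG, 1923.57 in LRSKBr3, 974.04 in pSKBr3, 177.52 in BT-474 vehicle and 93.69 in BT-474 EGF. The PCMTD2 site scored 1829.18 on HRG and, of the other lists, had a peak in LRSKBr3 alone, at 639.5. All 12 sites had an LRSKBr3 peak, 9 had a pSKBr3 peak and 5 a BT-474 HRG peak. All 12 were wide, from 1995 to 23940 bp, and 10 had a vehicle or EGF peak within 10 kb of the site. The remaining 8 lay at GTF2IRD1, HCFC1R1, EPB41L1, FBLN2, TMEM120A, TMEM167B, TMEM134 and ACTR6. The EPB41L1 site, 23940 bp long, had a vehicle or EGF peak 546 bp from its edge and peaks in all 5 other lists. One of the 12, at HCFC1R1, held an AP-1 word at its midpoint, and none held an ERRE word.

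Some of these sites were bound again in drug-resistant cells. Of the 11454 HRG-only distal sites, 3856 carried a peak in LRSKBr3, a share of 33.7% (32.8 to 34.5), where 50.5% of all 49164 distal sites did. The share depended on the peak threshold. Among the 4285 HRG-only distal sites with an HRG peak at P of at most 1e-10 it was 49.99% (48.5 to 51.5). When that P was asked of all 3 SKBr3 lists before merging, 6068 sites were HRG-only and distal, and 56.6% (55.4 to 57.9) had an LRSKBr3 peak. These include sites whose weaker vehicle or EGF peaks no longer counted, and the share over all distal sites at that threshold was not computed. The share was 48.2% (46.7 to 49.6) at distal sites bound on EGF and HRG but not on vehicle (EGF+HRG distal sites, n = 4554). It was 17.7% (16.7 to 18.8) at EGF-only distal sites, 91.7% at common distal sites and 69.1% at HRG-only promoter sites. In the parental pSKBr3 cells, 12.8% (12.2 to 13.4) of HRG-only distal sites had a peak, against 29.4% of all distal sites and 45.6% of HRG-only promoter sites. It was 22.5% among the 4285 stronger sites and 26.6% among the 6068. HRG-only distal sites with an LRSKBr3 peak and no pSKBr3 peak numbered 2662 (23.2%), those with both 1194 (10.4%) and those with a pSKBr3 peak alone 275 (2.40%). Over all distal sites these shares were 23.4%, 27.1% and 2.29%, so the share with LRSKBr3 and no pSKBr3 was near that of all distal sites. The LRSKBr3 list is also the longer of the 2, with 39777 peaks against 22539 in pSKBr3. The part of list length in the difference between LRSKBr3 and pSKBr3 was not tested. The labels do not say whether pSKBr3 and LRSKBr3 cells were starved, so any difference in serum cannot be told apart from the line.

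**Figure D1:**
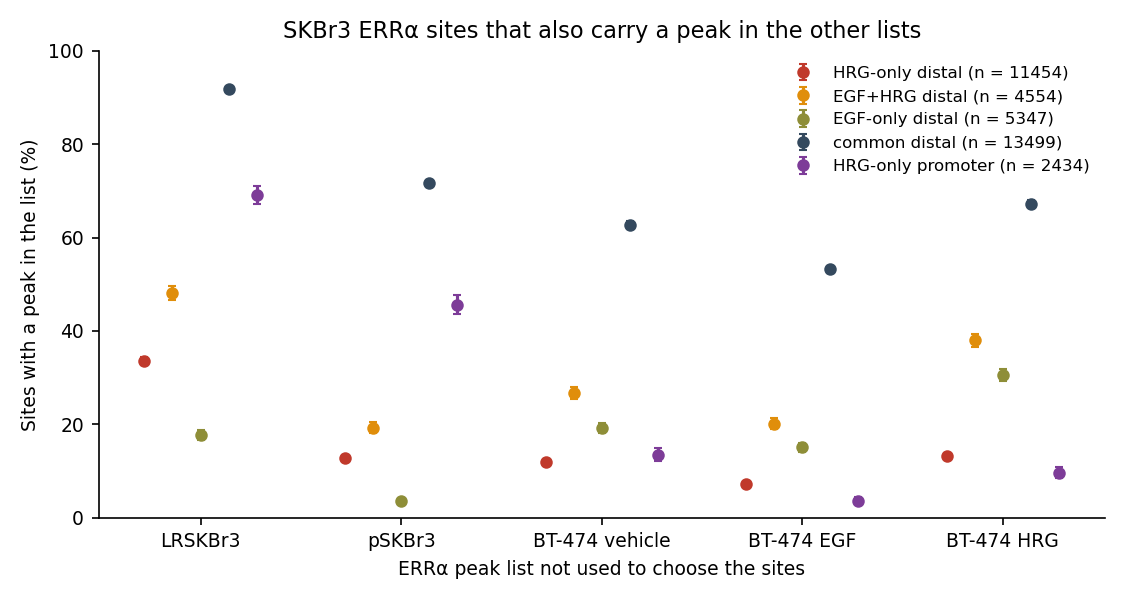
Share of sites (y axis, %) with a peak in each of the 5 ERRα lists that did not enter the choice (x axis), for 5 classes of SKBr3 site; bars are 95% Wilson intervals. HRG-only distal sites lie at 33.7% in LRSKBr3 and at 13.3% in BT-474 HRG, below EGF+HRG distal sites at 48.2% and 37.97%.

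The second HER2-positive line shared few of these sites. BT-474 cells under HRG had a peak at 13.3% (12.7 to 14.0) of HRG-only distal sites, where 37.7% of all distal sites had one. The share was 37.97% (36.6 to 39.4) at EGF+HRG distal sites and 30.6% at EGF-only distal sites. BT-474 cells on vehicle had a peak at 12.05% (11.5 to 12.7) of HRG-only distal sites, against 32.8% of all distal sites. On EGF the share was 7.19%, against 26.1% of all distal sites. The BT-474 HRG and vehicle shares were 15.8% and 15.1% among the 4285 stronger sites and 20.9% and 19.2% among the 6068. The BT-474 HRG list held 41271 peaks, the vehicle list 32259 and the EGF list 26832, and the part of list length in these shares was not tested. EGF-only distal sites also had the higher share in the other BT-474 lists, at 19.2% on vehicle and 15.1% on EGF, and vehicle-only distal sites had a BT-474 HRG peak at 21.7%. Of HRG-only distal sites, 492 (4.30%) had a BT-474 HRG peak without a BT-474 vehicle peak, and 345 (3.01%) the reverse. Those shares were 8.52% and 3.64% over all distal sites, and 14.3% and 2.92% at EGF+HRG distal sites. In all, 6423 HRG-only distal sites (56.1%) had no peak in any of the 5 other lists, against 35.2% of all distal sites. The other classes called in a single SKBr3 list were alike, at 55.5% of EGF-only and 59.2% of vehicle-only distal sites. EGF+HRG distal sites stood at 30.9% and common distal sites at 2.85%. A peak in all 5 was found at 147 HRG-only distal sites (1.28%), against 12.9% of all distal sites.

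The 5 highest-scoring sites with LRSKBr3 and BT-474 HRG peaks and none in pSKBr3, out of 500 such sites, included sites at ACTR6, MESP1, MTA3 and EEF1E1. Of the 5, 3 also had a BT-474 vehicle peak. MTA3 encodes a subunit of the NuRD chromatin complex. The MTA3 site scored 686.46 in SKBr3 on HRG, 324.88 in LRSKBr3, 51.36 in BT-474 vehicle and 62.37 in BT-474 HRG. The intronic EEF1E1 site, which held an AP-1 word, scored 656.56 on HRG, 160.51 in LRSKBr3 and 340.86 in BT-474 HRG, with no peak in BT-474 vehicle or EGF.

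Sharing with LRSKBr3 rose steeply with peak strength. The share was 19.3% among HRG-only distal peaks scoring 50 to 60 and 77.3% among the 581 that scored 300 or more. EGF+HRG distal sites went from 28.5% to 70.7% over the same bands. The lower overall share of HRG-only sites therefore held in the weak bands and not in the strong ones: at scores of 150 to 300 the shares were 55.3% and 51.4%, with HRG-only sites the higher. Sharing with BT-474 HRG behaved differently. It ran from 10.48% to 20.5% at HRG-only distal sites and stayed between 35.99% and 41.1% at EGF+HRG distal sites, so the gap between the classes was present in every band. The pSKBr3 share rose from 5.39% to 47.3%.

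**Figure D2:**
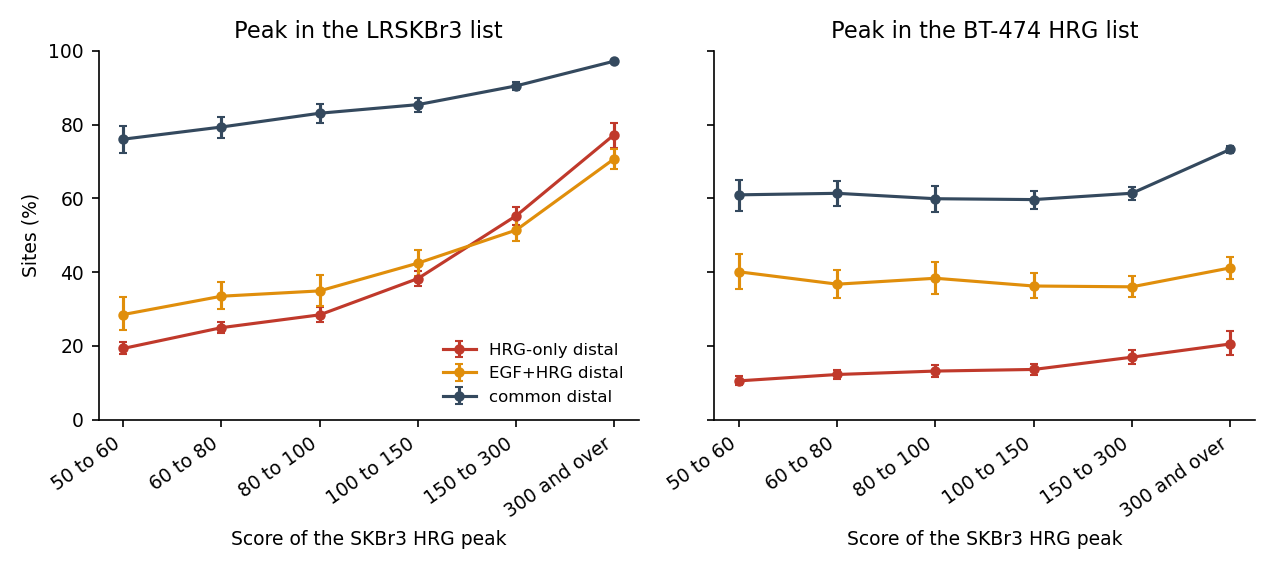
Share of sites (y axis, %) with a peak in LRSKBr3 (left) or BT-474 HRG (right) by score band of the SKBr3 HRG peak (x axis), with 95% Wilson intervals. HRG-only distal sites climb from 19.3% to 77.3% in LRSKBr3, crossing the EGF+HRG line, and stay below it in every band of BT-474 HRG.

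The receptor's own element was present above the local background and was less frequent than at the other distal classes examined. Within 100 bp of the midpoint, 449 HRG-only distal sites (3.92%, 3.58 to 4.29) held TCAAGGTCA on either strand. In windows of the same length 2 kb to each side the share was 0.314%. All distal sites held it at 6.27%, common distal sites at 8.67%, EGF+HRG distal sites at 5.60%, EGF-only distal sites at 5.65% and vehicle-only distal sites at 4.88%. HRG-only promoter sites held it at 0.904%. The core half-site AAGGTCA, which the ERRE contains, was found at 16.4% of HRG-only distal sites, 29.6% of common distal sites and 27.5% of EGF+HRG distal sites, with 3.64% in the HRG-only flanks. A match to the letters is not evidence of binding at them.

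The AP-1 word did not mark HRG-only sites the way it marked sites that EGF also gave. TGACTCA was found at 990 HRG-only distal sites (8.64%, 8.14 to 9.17), where 3.03% of the flanks and 10.4% of all distal sites held it. At common distal sites the share was 9.25% (8.77 to 9.75), an interval that overlaps that of HRG-only sites. At EGF+HRG distal sites it was 23.9% (22.7 to 25.2) and at EGF-only distal sites 20.7% (19.6 to 21.8). The gap to EGF+HRG sites was present in every score band, at 9.13% against 24.9% for scores of 50 to 60 and 8.78% against 20.1% for scores of 300 or more. Without chromosome 7 the shares were 9.08% and 24.2%.

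HRG-only distal sites split by peak width. The 7010 with a peak of at most 1500 bp held the ERRE word at 5.69% and the AP-1 word at 11.5%. The 4444 wider ones held them at 1.13% and 4.21%, where their flanks held 0.236% and 2.89%. Of the 449 sites with an ERRE word, 399 were narrow. At HRG-only distal peaks over 3000 bp the AP-1 share was 2.93% up to 5000 bp and 3.01% beyond, close to the flank shares of 2.38% and 3.97%. Common distal sites showed the same fall in ERRE share, from 17.9% at peaks of up to 1000 bp to 1.22% over 5000 bp. A fixed window covers less of a wide peak, so whole peaks were searched against neighbouring stretches of equal width. There the AP-1 word was at 38.2% of the wide HRG-only peaks against 33.7% of the stretches beside them, and at 27.1% against 16.4% for the narrow ones. The ERRE word was at 7.31% against 3.79% for the wide peaks and at 8.66% against 1.86% for the narrow ones.

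**Figure D3:**
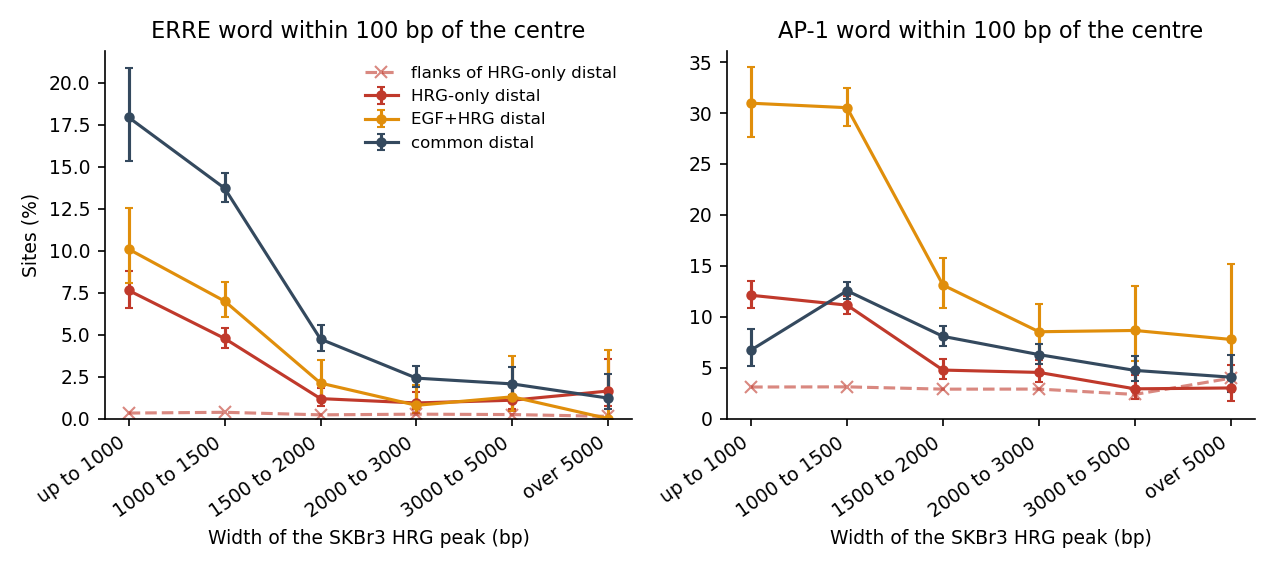
Share of sites (y axis, %) with the ERRE word (left) or AP-1 word (right) within 100 bp of the peak midpoint, by width of the SKBr3 HRG peak (x axis), with 95% Wilson intervals; the dashed line gives the flanks of HRG-only distal sites. At HRG-only distal sites both words fall toward the flank line beyond 1500 bp, and EGF+HRG sites lead for AP-1 in every band.

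Both words were centred on the narrow peaks. Narrow HRG-only distal sites held 21.1 ERRE words per 1000 sites in the 50 bp just after the midpoint and 35.8 AP-1 words per 1000 in the 50 bp just before it. Over all widths, HRG-only distal sites held 14.1 ERRE words per 1000 just after the midpoint, where common distal sites held 30.2. Over all widths they held 26.7 AP-1 words per 1000 just before it, where EGF+HRG distal sites held 69.2. In wide HRG-only peaks the highest ERRE value, 3.83 per 1000, was in the 50 bp just before the midpoint. AP-1 words showed no peak at the midpoint of wide sites: 12.4 and 13.3 per 1000 were found just before and after it, and the highest value, 20.5, lay 250 to 300 bp after it.

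**Figure D4:**
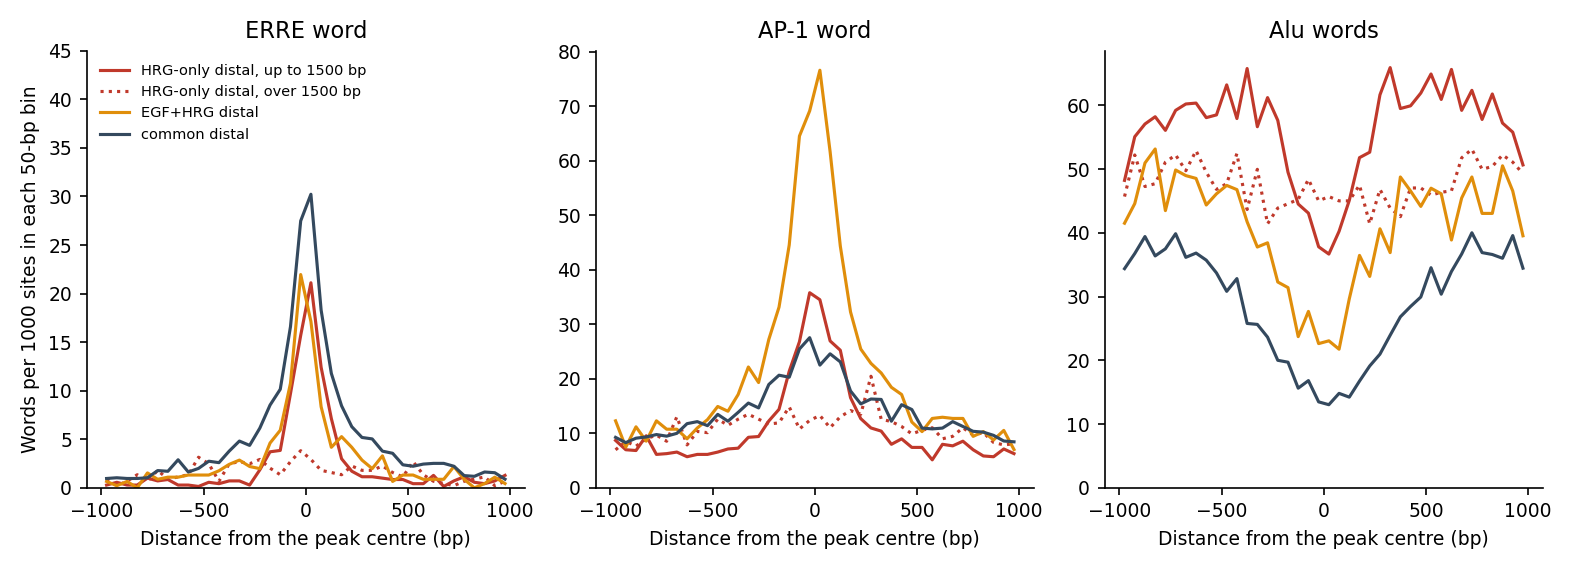
Words per 1000 sites in each 50-bp bin (y axis) by distance from the peak midpoint (x axis, bp) for the ERRE word, the AP-1 word and 3 Alu words, in narrow and wide HRG-only distal peaks, EGF+HRG distal sites and common distal sites. ERRE and AP-1 words peak at the midpoint of narrow HRG-only sites, and Alu words fall toward the midpoint in narrow HRG-only sites (64.9 to 36.7) and in common distal sites (34.5 to 13.04).

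Short words found in Alu elements, the most numerous short interspersed repeats of primate genomes, were more frequent at HRG-only distal sites than at the other site classes examined. No repeat annotation was used here, and a single word such as the one in the INTS1 window does not show that a site lies in an Alu element. This was looked for after windows of the strongest sites had been read. The words GGGATTACA, GCTGGAGTG and GAGACCAGC, all part of the Alu consensus, were searched on both strands. At least 1 of them was within 100 bp of the midpoint at 1525 HRG-only distal sites (13.3%, 12.7 to 14.0), against 5.52% of all distal sites. The share was 7.60% (6.86 to 8.40) at EGF+HRG distal sites, 4.56% (4.22 to 4.93) at common distal sites, 1.18% at EGF-only distal sites and 0.714% at vehicle-only distal sites. In every class the flanks held more: 15.6% for HRG-only, 14.5% for EGF+HRG, 12.5% for common, 9.11% for EGF-only and 6.58% for vehicle-only distal sites. Nearer to the midpoint a dip was seen at HRG-only sites too, from 57.5 words per 1000 sites at 500 to 550 bp after it to 40.2 in the 50 bp just after it. At narrow HRG-only sites (peaks of at most 1500 bp) those values were 64.9 and 36.7, and at common distal sites 34.5 and 13.04. The wider HRG-only sites showed no such dip, at 45.9 and 45.7. Each of the 3 words gave the same order of classes between HRG-only, EGF+HRG and common distal sites, GGGATTACA for example at 7.74%, 4.63% and 2.26%. A run of TGTGTGTGT was at 3.37% of HRG-only distal sites, 1.97% of their flanks and 1.81% of common distal sites.

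The Alu words stood at sites of every strength. They were at 12.8% of HRG-only distal peaks scoring 50 to 60 and at 21.5% of those scoring 300 or more, against 1.16% and 6.42% at common distal sites. They were at 20.5% of HRG-only sites with a GC content of 40 to 50%, where common distal sites had 4.76%. Sites with and without an Alu word had LRSKBr3 peaks at 34.9% (32.5 to 37.3) and 33.5% (32.6 to 34.4), and BT-474 HRG peaks at 14.95% and 13.1%. Among narrow peaks the LRSKBr3 shares were 27.5% (24.7 to 30.5) with an Alu word and 33.1% (31.97 to 34.3) without. Among narrow HRG-only sites, AP-1 words were at 19.3% (16.9 to 21.99) of the 902 with an Alu word and at 10.3% (9.56 to 11.1) of the 6108 without. At EGF+HRG distal sites the order was the other way, 16.5% with an Alu word and 24.5% without. How uniquely reads could be placed in these repeats was not tested, since the lists hold no mapping quality.

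Of the 24 transcription factor words searched at first, most beyond ERRE and AP-1 showed smaller gaps between midpoint and flank. GCCNNNGGC, bound by AP-2 factors, was at 9.03% of midpoints and 5.73% of flanks, with 8.61% at common distal sites. The CTCF word was at 1.75% against 0.768%, and the TEAD word ACATTCC at 3.71% against 2.78%. The GATA word AGATAA was below its flanks, at 8.07% against 10.4%. The forkhead word TGTTTAC, bound by the luminal pioneer factor FOXA1, was at 2.85% against 2.26%, while EGF-only distal sites held it at 6.27% and common distal sites at 4.46%. The forkhead word was at 6.29% (5.18 to 7.62) of those with a BT-474 HRG peak and 2.32% (2.04 to 2.63) of those without.

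Sites kept in LRSKBr3 and sites not kept differed in sequence. The ERRE word was at 6.61% (5.87 to 7.44) of HRG-only distal sites with an LRSKBr3 peak and 2.55% (2.22 to 2.93) of those without. The AP-1 word went the other way, at 5.89% (5.19 to 6.67) with and 10.0% (9.39 to 10.7) without. The GC-box word GGGCGG, bound by SP factors, was at 10.4% with and 6.53% without. Sites with an LRSKBr3 peak were also stronger (median score 110 against 75.5), nearer a start (14856 bp against 30059 bp) and richer in GC (52.7% against 48.3%). The part of these differences in the sequence result was not tested.

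HRG-only distal sites were the most GC-rich of the distal classes examined. Their median GC content over the same windows was 50.2% and that of their flanks 46.8%. The medians were 48.3% at EGF+HRG, 47.3% at common, 41.3% at EGF-only and 40.3% at vehicle-only distal sites. LRSKBr3 sharing rose with GC, from 13.4% of HRG-only sites at up to 40% GC to 49.7% above 60% GC, and BT-474 HRG sharing was 15.3% at up to 40% GC, 19.7% at 40 to 50% and 4.35% above 60%. The AP-1 word was at 4.05%, 11.7%, 9.81% and 6.46% of sites in the GC bands up to 40%, 40 to 50%, 50 to 60% and above 60%. At EGF+HRG distal sites it was at 19.5%, 27.1%, 23.5% and 17.6%, higher in each.

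The sites were unevenly spread over chromosomes. Chromosome 19, the most gene-dense, held 750 of them, or 12.7 per Mb against 3.70 over the genome, and HRG-only sites made up 54.7% of all its distal sites. Chromosome 7 held 1337 (11.7%), near the 10.8% of all distal sites that it held. That was 8.40 per Mb, where common distal sites stood at 3.37 per Mb. Vehicle-only distal sites reached 12.6 per Mb on chromosome 7, and EGF-only distal sites 3.32 per Mb. HRG-only sites on chromosome 7 differed from the rest: the median width was 2014 bp against 1232 bp, ERRE words were at 1.72% against 4.21%, AP-1 words at 5.31% against 9.08%, and LRSKBr3 peaks at 24.4% against 34.9%. Chromosome 20 was alike, with 7.57 sites per Mb and a median width of 2071 bp. Copy number in these lines was not examined here.

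**Figure D5:**
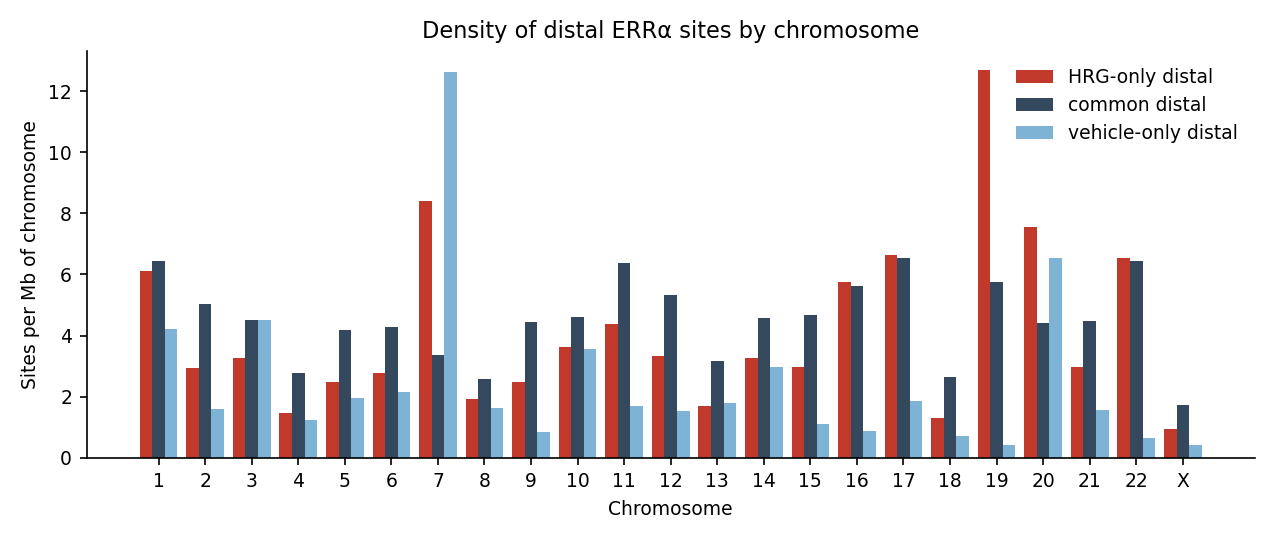
Sites per Mb (y axis) on each chromosome (x axis) for HRG-only, common and vehicle-only distal sites. HRG-only sites are densest on chromosome 19 at 12.7 per Mb, and chromosome 7 carries many HRG-only (8.40 per Mb) and vehicle-only (12.6 per Mb) sites but few common ones (3.37 per Mb).

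Some regions were crowded with HRG-only sites. Of 2701 windows of 1 Mb that held a distal site, 62 held 20 or more HRG-only sites, together 1641 sites (14.3%), where the median window held 2. The densest, from 73 to 74 Mb on chromosome 7 (start 73000001, end 74000000), held 63 HRG-only, 6 common and 0 vehicle-only distal sites. It spans ELN, encoding elastin, CLIP2 and GTF2IRD1. The site with most neighbours lay in an intron of FBXL18, chr7:5525681-5528115, with 19 HRG-only sites within 100 kb, itself included. It scored 196.7 on HRG, 104.81 in LRSKBr3, 86.31 in pSKBr3 and 54.98 in BT-474 vehicle. The next clusters centred on introns of GTF2IRD1 (18 sites), an intergenic site near ELN (17), and introns of SYT7 on chromosome 11 and of CLIP2 (16 each). Of all HRG-only distal sites, 2490 (21.7%) had no other within 100 kb.

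HRG-only distal sites lay within 20 kb of a start of 5161 of 19794 protein-coding genes (26.1%), and 1339 genes (6.76%) had such a site and no vehicle or EGF peak in that range. The gene lists read against this background were chosen with earlier results of these data known, and no list was tested. Nearness does not show that a gene is regulated by a site. Genes that share a site are each counted. Counts of genes with a common distal site are also given for some lists. The share of all genes with a common distal site in range is not given here, so those counts have no background.

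Of 18 genes of AP-1 subunits, 12 had an HRG-only distal site (66.7%, 43.7 to 83.7), and 9 of the 18 had a common distal site. In all, 2 of the 18 had such a site and no vehicle or EGF peak in range. FOSB, an immediate early FOS paralogue and one of those without a vehicle or EGF peak, had 2 sites. Its stronger site, chr19:45956485-45960218, scored 790.81 and was shared with LRSKBr3 and pSKBr3. MAFK had 2 sites, the stronger scoring 330.72 and in no other list, and had a vehicle or EGF peak in range. JUNB, which also had a vehicle or EGF peak in range, had a site scoring 216.76 that was shared with LRSKBr3, pSKBr3, BT-474 vehicle and BT-474 HRG. Of the other immediate early genes, 10 of 23 (43.5%) had a site, led by IER2 at 630.97, the orphan receptor gene NR4A1 at 303.47 and IER3 at 230.94.

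Epithelial junction and keratin genes had HRG-only distal sites at 22 of 35 (62.9%, 46.3 to 76.8), and 19 had a common distal site. The interval treats the genes as independent, although KRT81 and KRT86 shared their strongest site, as did KRT8 and KRT18. In all, 2 of the 35, CLDN3 among them, had an HRG-only distal site and no vehicle or EGF peak in range. The tight junction gene CLDN3 had a site scoring 720.63, shared with LRSKBr3, pSKBr3, BT-474 vehicle and BT-474 HRG. CTNNA1, encoding α-catenin, had 10 sites, the strongest at 716.44 and shared with LRSKBr3. CTNND1, encoding p120-catenin, had a site scoring 388.55. At integrin and laminin genes the count was 14 of 38 (36.8%), led by LAMA5, LAMC3 and ITGB4. At genes of luminal and mammary transcription factors it was 11 of 26 (42.3%), led by ID1, GRHL1 and GRHL3.

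The genes of the pathway that HRG engages are described from the receptors down. Of 15 ERBB receptor and EGF-family ligand genes, 6 had a common distal site. None of the 15 had an HRG-only distal site in range (0%, upper Wilson bound 20.4%). Of 23 adaptor and RAS-ERK genes, 10 had one (43.5%), with MAP2K2, encoding the kinase MEK2, at 473.86 and KSR1, encoding a RAF-MEK scaffold, with 5 sites up to 346.44. Of 26 PI3K, AKT and mTOR genes, 8 had one (30.8%). PIK3CD, encoding the p110δ catalytic subunit, had 8 sites, the strongest with an AP-1 word at 412.03 and an LRSKBr3 peak. Of 25 feedback inhibitor genes, 8 had one, led by SOCS3 at 259.16, CBL at 239.63 and DUSP8 at 213.59. Other receptor tyrosine kinase genes stood at 20 of 54 (37.04%), led by TYRO3, EPHB6 and TIE1.

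Metabolic genes, the classic ERRα targets, were mixed. Genes of respiratory complex I had HRG-only distal sites at 6 of 37 (16.2%), led by NDUFA7 at 467.94, and those of the TCA cycle and pyruvate entry at 6 of 32 (18.8%), led by IDH2 at 181.37. Both shares were below the 26.1% of all genes, with intervals (7.65 to 31.1 and 8.89 to 35.3) that include it. Fatty acid oxidation stood at 8 of 23 (34.8%, 18.8 to 55.1), with ETFA, encoding a subunit of the electron transfer flavoprotein, at 358.54. In all, 2 of the 23, ETFA among them, had such a site and no vehicle or EGF peak in range. Glycolysis and lactate transport stood at 13 of 32 (40.6%, 25.5 to 57.7), where the site at the glucose transporter gene SLC2A1 scored 258.94 and held an ERRE word. The intervals of fatty acid oxidation and glycolysis also include 26.1%. Glutamine metabolism stood at 11 of 23 (47.8%, 29.2 to 67.04), led by the glutamine transporter gene SLC1A5 with 5 sites up to 284.77. Glutathione and antioxidant defence stood at 19 of 46 (41.3%, 28.3 to 55.7), and 0 of the 46 had such a site without a vehicle or EGF peak in range. The sites at GPX4, which reduces lipid peroxides, and at PRDX5 scored 666.96 and 509.5 and both held an AP-1 word.

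The ERR genes and their cofactors had HRG-only distal sites at 5 of 17 (29.4%). ESRRA, the gene of ERRα itself, had 1 site 8895 bp from a start, chr11:64090091-64091210, scoring 152.2 and shared with LRSKBr3. PPARGC1B, encoding the coactivator PGC-1β, had 1 site at 148.74 that was in no other list. Other nuclear receptor genes stood at 12 of 32 (37.5%), led by VDR at 605.42, RXRA at 218.87 and NR2F6 at 197.24. The remaining lists stood at 7 of 31 (22.6%) for TGF-β and BMP signalling and 5 of 21 (23.8%) for the Hippo pathway and TEAD factors.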

How the data were processed

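Each deposited peak list gives the score that MACS, run by the authors at P of 1e-05, wrote as a log-scaled P value. The submitters' processing notes name hg19, BWA 0.5.9 and SAMtools 0.1.18. The lists hold no read counts, so depth is unknown and no test was run. Replicates were pooled in the deposited SKBr3, pSKBr3 and LRSKBr3 lists.

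The vehicle, EGF and HRG lists of SKBr3 were merged at a 1 bp overlap. Starts came from GENCODE v44 lifted to GRCh37, and sequence from GRCh37, which shares hg19's chromosome lengths. Words were searched on both strands within 100 bp of peak midpoints and in 2 flanks 2 kb away. A gene was in range with a start within 20 kb. The members, the gene lists and the words were chosen with earlier results of these data known. The 3 Alu words and the TG run were added after reading sequences.

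Named sites were the 12 of highest score, the 5 strongest with both words, the 5 strongest shared with LRSKBr3 and BT-474 HRG but not pSKBr3, the 5 with most HRG-only sites within 100 kb, and the 3 genes per list with the strongest site. Some sites, genes and sequences that this rule names are not reported here. The merging, distances and word search were tested on simulated data, where 3000 of 3000 sites and distances and all planted words were recovered. Python 3.11, numpy, pandas and pysam were used. Alternatives are given below. No gene's expression was measured in these lists, so markers of the cell lines were not checked.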

Additional observations from a re-analysis of the deposited data

How the results depend on the processing

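No paired analysis was possible because each SKBr3, pSKBr3 and LRSKBr3 list pools its replicates and each BT-474 list rests on 1 ChIP library, and for the same reason no replicate could be left out. Of 87 values recomputed under the alternatives, 43 stayed within the interval of the value reported (counts within 1.5 times) and 44 moved. The values are counts, shares and medians without a direction, so a reversal could not be scored. Of the 49 that concern pSKBr3, BT-474, GC content, genes in range and introns, 24 moved. With P at most 1e-10 in the 3 SKBr3 lists before merging, 6068 sites were HRG-only and distal, some of them sites whose weaker vehicle or EGF peaks no longer counted, with LRSKBr3 peaks at 56.6% and AP-1 words at 9.94%. With that P asked of the HRG peak alone, there were 4285 sites, with LRSKBr3 peaks at 49.99% and ERRE words at 3.06%. The LRSKBr3 share was 37.2% when only overlaps of 50% of both peaks counted, 32.7% without sites within 1 kb of a vehicle or EGF peak, 31.2% beyond 5 kb from starts, 32.5% with starts of all gene types and 34.9% without chromosome 7. AP-1 and ERRE words were at 4.83% and 2.26% within 50 bp of the midpoint, and at 31.4% and 8.14% over whole peaks. The shorter word AAGGTCA was at 16.4%. Genes in range numbered 3234 with 10 kb in place of 20 kb and 3403 for sites beyond 5 kb from starts. With P at most 1e-10 asked of the HRG peak they numbered 2700. Under the other settings this count stayed within 1.5 times of 5161. For peaks of at most 1500 bp, an alternative added after seeing the data, the values were 7010 sites, 32.4% with LRSKBr3 peaks, 11.5% with AP-1 and 5.69% with ERRE words. A site absent from a list may have fallen just short of its threshold, and depth per list was not available to weigh this.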
